A study of Mus musculus with 30 samples.

Results

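Peroxisomes are small organelles that shorten very long and branched fatty acids by beta-oxidation and alpha-oxidation, start the synthesis of ether lipids and break down hydrogen peroxide. Their matrix proteins are made in the cytosol, recognised by the receptors PEX5 and PEX7, and passed through a docking complex that holds PEX13 and PEX14. The membrane proteins enter by a separate route served by PEX3, PEX16 and PEX19. In adipocytes, peroxisomes take part in lipid turnover and in the supply of ether phospholipids.

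A set of 34 genes of peroxisome biogenesis and metabolism, taken by gene name, was described in 30 RNA-seq libraries from 3T3-L1, a mouse fibroblast line that can be turned into adipocyte-like cells. The table held all 34 among 62279 gene rows, and 33 of them were among the 18036 gene rows that reached 1 FPKM (fragments per kilobase of transcript, scaled to the number of mapped fragments) in at least 5 libraries and were tested. The exception was Ehhadh, which encodes the L-bifunctional enzyme of beta-oxidation and did not exceed 0.737 FPKM in any culture. Every culture was in differentiation medium with insulin, isobutylmethylxanthine and fetal bovine serum, and dexamethasone is described as a positive control rather than as part of that medium. The treated cultures received the herbicide quizalofop-p-ethyl (QpE) at 50 µM, started after 2 days in that medium, and the control cultures did not. There were 5 QpE and 5 control cultures at each of the labelled times 6 h, 24 h and 12 days, numbered 1 to 5. The treatment protocol describes a shorter course of medium changes than the 12-day label. Nothing in the labels says that the cultures came from separate thawings or days, so p-values measure the spread among these cultures, which may in part be technical.

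Summed FPKM of 10 adipocyte marker genes ranged over 3228 to 8603 in QpE cultures at 12 days and over 1076 to 5568 in control cultures at 12 days, against at most 769 in any culture at 6 h or 24 h. That sum includes Lpl, which lay between 39.4 and 1299 FPKM in QpE cultures at 12 days. None of the 10 was called with QpE at 12 days, and 9 had the higher log2 mean. Cd36 had the lower one, at 257, 205, 94.9, 111 and 103 FPKM in QpE cultures, against 546, 486, 80.1, 45.4 and 417 FPKM in control cultures. Summed FPKM of 8 fibroblast and preadipocyte markers ranged over 455 to 2541 in QpE cultures at 12 days and over 5461 to 6382 in control cultures at 12 days. Of these 8, 4 were called lower with QpE, against 493 of all 18036 genes called lower and 4.86% called in either direction. All 10 adipocyte and all 8 fibroblast markers averaged at least 1 FPKM in both 12-day groups. Of 5 macrophage markers 1 did, with a sum of at most 5.35 FPKM, and 4 endothelial markers summed to at most 0.623 FPKM in any library. Among 5 bone and cartilage markers, Sox9 alone averaged at least 1 FPKM at 12 days. It was lower with QpE at 12 days, at 4.08 to 6.47 FPKM in QpE cultures and 8.43 to 12.8 FPKM in control cultures (limma, -0.94, adjusted p = 0.0249). Among 4 muscle markers, Des alone did, and it was higher with QpE at 12 days, at 8.76 to 18.4 FPKM in QpE cultures and 4.64 to 9.56 FPKM in control cultures (0.91, adjusted p = 0.0462). The part of these shifts in the results below was not tested. In bulk RNA, fewer cells of a type and less RNA per cell cannot be told apart. The libraries held about 9500000 to 17500000 fragments each, as read from the spacing of their low FPKM values.

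The table names transcripts by gene, and gene values are sums of named transcripts. Some loci also held assembled transcripts with no gene name, which these sums leave out. Many of the results that moved when such transcripts were added are given beside the main ones, and others only as counts.

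Across the 30 libraries the peroxisome genes covered a wide range of levels. Idh1, which makes NADPH in the cytosol and in peroxisomes, had the highest mean at 198.5 FPKM. It was followed by Scp2, a peroxisomal thiolase and sterol carrier, at 94.7 FPKM, and Ech1, a dienoyl-CoA isomerase, at 77.6 FPKM. Acaa1b, 1 of 2 close thiolase paralogs, had a mean of 1.59 FPKM and reached 1 FPKM in 14 libraries. Reads may be split between Acaa1a and Acaa1b, so the values of both are uncertain. Pex14, Crot, Hacl1 and Gnpat share an assembled locus with another named gene, and the sources used here do not say whether the quantification used strand.

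The first question was how these genes moved in control cultures as differentiation went on. At 12 days, 14 of the 33 genes had risen and 2 had fallen relative to control cultures at 24 h (limma, Benjamini-Hochberg adjusted p under 0.05). Over all genes tested, 20.5% were called in that comparison, 8.11% higher and 12.4% lower. The median log2 difference was 0.53 for the peroxisome genes, of which 27 of 33 lay above 0, and -0.08 for all genes tested, of which 42.1% lay above 0. With median-ratio scaling the split over all genes was 1784 higher and 1661 lower, against 1463 and 2230 as deposited, and the same scaling again called 14 peroxisome genes higher and 2 lower. Between 9 and 18 of the genes were called when 1 culture was left out. There were 9 without control culture 1 or 3 of 24 h or control culture 5 of 12 days, and 10 without control culture 4 of 24 h or control culture 1 of 12 days. The comparison shares its 12-day and 24 h control cultures with the QpE comparisons below.

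**Figure D1:**
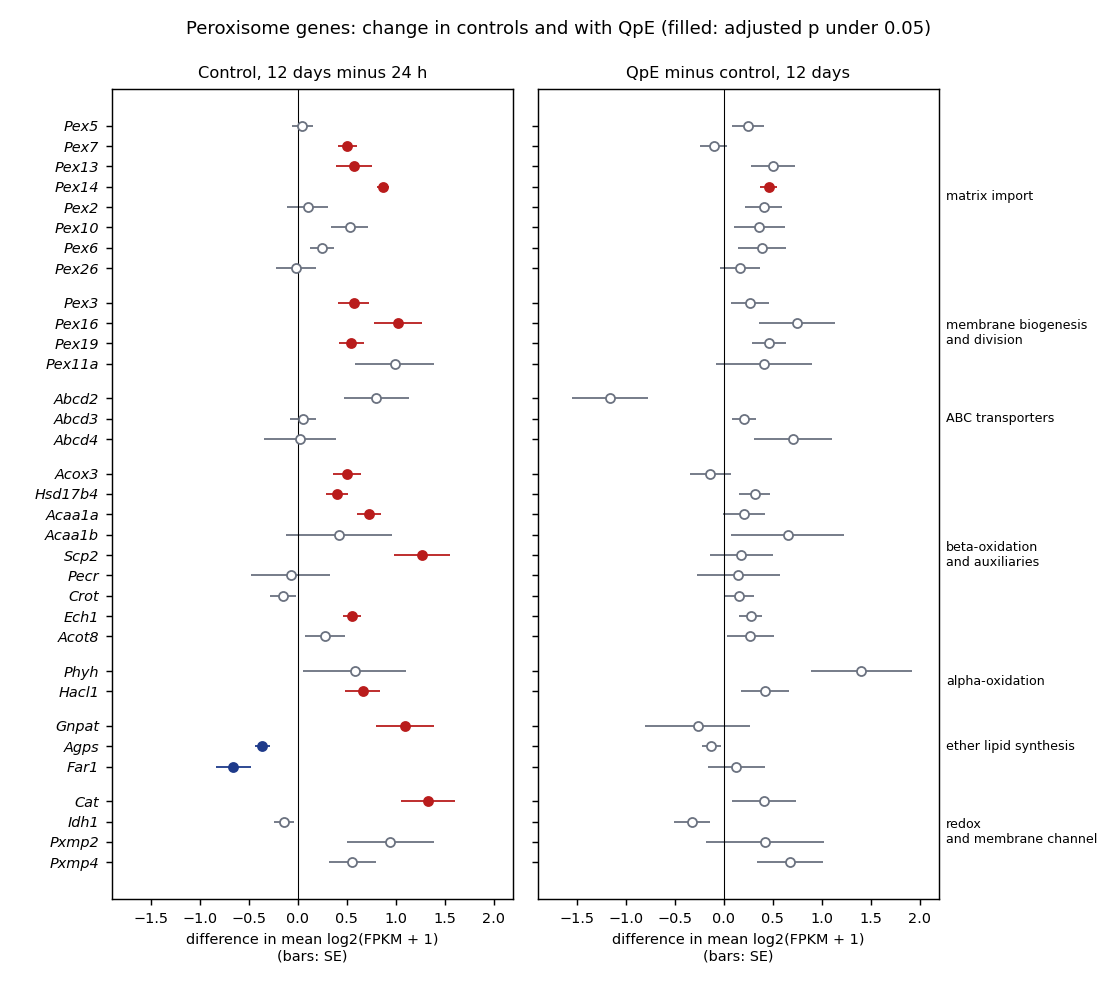
Log2 differences in mean log2(FPKM + 1) with SE for the 33 tested genes, ordered by role, for control cultures at 12 days minus control cultures at 24 h (left) and for QpE minus control cultures at 12 days (right). Filled points passed an adjusted p of 0.05. On the left 14 genes lie above 0 and 2 below among the filled points, and on the right Pex14 is the filled point.

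Matrix import genes were divided. Of the 8, Pex7 (the receptor for the second type of targeting signal), Pex13 and Pex14 rose at 12 days in control cultures, and none fell. Pex14 was at 30, 30.5, 31.1, 27.3 and 33.3 FPKM in control cultures at 12 days, against 16.5, 17.1, 15, 15.9 and 16.6 FPKM in control cultures at 24 h. All 5 cultures at 12 days lay above all 5 at 24 h, and the log2 difference was 0.87 ± 0.06 (SE, adjusted p = 4.74e-05). Pex5, the receptor for the commonest targeting signal and the most abundant gene of the group, was at 60.0, 60.9, 58.7, 54.0 and 40 FPKM in control cultures at 12 days, against 53.3, 54.0, 50.3, 50.2 and 54.5 FPKM in control cultures at 24 h. Those groups overlapped, and the log2 difference was 0.04 (95% interval -0.20 to 0.29). The ligase subunits Pex2 and Pex10 and the receptor-export genes Pex6 and Pex26 had log2 differences between -0.02 and 0.53, none called. Pex10 (0.66, adjusted p = 0.00149) and Pex6 (0.38, adjusted p = 0.0106) were called higher with unnamed transcripts added.

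Of the 4 genes of membrane biogenesis and division, Pex3, Pex16 and Pex19 rose at 12 days in control cultures. Pex19, the chaperone and import receptor of membrane proteins, was at 86.3, 83.0, 59.4, 60.0 and 86.4 FPKM in control cultures at 12 days, against 53.0, 55.2, 45.7, 46.9 and 51.4 FPKM in control cultures at 24 h. The groups did not overlap, and the difference was 0.55 ± 0.13 (SE, adjusted p = 0.0136). Pex16, which recruits membrane proteins, had the largest difference of the group at 1.02 ± 0.24 (SE, adjusted p = 0.0156), with 33.8, 14.9, 14.6, 13.9 and 21.4 FPKM in control cultures at 12 days, against 10.1, 10.4, 7.63, 6.13 and 9.60 FPKM in control cultures at 24 h. Again the groups did not overlap, and culture 1 of 12 days was the highest. Pex11a, which elongates the membrane before division, differed by 0.99 ± 0.41 without passing the threshold (adjusted p = 0.121). It passed with unnamed transcripts added (1.13, adjusted p = 0.00872).

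Enzymes of beta-oxidation and alpha-oxidation made up 6 of the 14 genes that rose. Among the 9 tested genes of beta-oxidation and its auxiliaries, Acox3 (an oxidase of branched-chain acyl-CoA), Hsd17b4 (the D-bifunctional protein), Acaa1a, Scp2 and Ech1 rose and none fell. Scp2 was at 233, 206, 92.5, 89.5 and 145 FPKM in control cultures at 12 days, against 68.8, 69.1, 55.5, 40.4 and 63.8 FPKM in control cultures at 24 h. Every culture at 12 days lay above every culture at 24 h, and the difference was 1.27 ± 0.29 (SE, adjusted p = 0.0123). Pecr, an enoyl-CoA reductase, Crot, a carnitine acyltransferase that exports shortened chains, the thioesterase Acot8 and Acaa1b had differences between -0.15 and 0.42 and were not called. In alpha-oxidation, the lyase gene Hacl1 was at 10.3, 9.59, 5.94, 5.45 and 9.30 FPKM in control cultures at 12 days, against 4.74, 4.14, 4.53, 5.77 and 4.08 FPKM in control cultures at 24 h. Culture 4 of 12 days lay within the 24 h range, and the difference was 0.66 ± 0.18 (SE, adjusted p = 0.0276).

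The 3 genes of ether lipid synthesis went different ways. Gnpat, which makes the acyl-dihydroxyacetone phosphate of the first step, was at 78.7, 57.1, 30.2, 27.3 and 75.6 FPKM in control cultures at 12 days, against 22.9, 24.7, 22.5, 17.8 and 25 FPKM in control cultures at 24 h. The groups did not overlap, and Gnpat rose by 1.09 ± 0.30 on the log2 scale (SE, adjusted p = 0.0278). Agps, the next enzyme, fell by 0.36 on the log2 scale (adjusted p = 0.00909), and Far1, which supplies the fatty alcohol, fell by 0.66 on the log2 scale (adjusted p = 0.0262). Agps lay at 9.59 to 11.5 FPKM in control cultures at 12 days, below the 12.2 to 15.3 FPKM of control cultures at 24 h. The groups of Far1 overlapped when named transcripts were summed. With unnamed transcripts added, Far1 lay at 20.7 to 27.2 FPKM in control cultures at 12 days, below the 34.5 to 41.1 FPKM of control cultures at 24 h, and fell by 0.67 on the log2 scale (adjusted p = 0.000261).

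Cat, which encodes catalase, had the largest difference of the 33 genes when named transcripts were summed. With unnamed transcripts added, Phyh (1.45) and Pex16 (1.37) lay above its 1.32. Its level was 134, 128, 62.5, 54.4 and 141 FPKM in control cultures at 12 days, against 41.5, 39.2, 38.3, 32.0 and 39.0 FPKM in control cultures at 24 h. Every 12-day culture was above every 24 h culture, and the difference was 1.32 ± 0.27 (SE, adjusted p = 0.00764). Idh1 was at 240, 242, 180, 183 and 227 FPKM in control cultures at 12 days, against 234, 245, 244, 234 and 219 FPKM in control cultures at 24 h. Those groups overlapped, with a difference of -0.14 (95% interval -0.36 to 0.08). The membrane proteins Pxmp2, a channel for small solutes, and Pxmp4 differed by 0.94 and 0.56 without a call (adjusted p = 0.172 and 0.135). Pxmp2 was called with unnamed transcripts added (1.185, adjusted p = 0.00733). None of the 3 ABC transporter genes was called.

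The earlier step was from 6 h to 24 h. In control cultures at 24 h, 5 of the 33 genes were higher than in control cultures at 6 h and none was lower, against 12.4% of all genes called in either direction and 5.62% called higher. The 5 were Abcd2, which carries very long chain acyl-CoA across the membrane (0.61), Phyh, the hydroxylase that opens alpha-oxidation (0.57), Idh1 (0.50), Cat (0.45) and Hsd17b4 (0.28), with adjusted p between 0.0277 and 0.0432. Idh1 was at 234, 245, 244, 234 and 219 FPKM in control cultures at 24 h, against 182, 187, 140, 131 and 205 FPKM in control cultures at 6 h. These groups did not overlap. The calls depended on single cultures. None was left without control culture 3 of 6 h or control culture 1 or 3 of 24 h, 1 was left without control culture 1 or 4 of 6 h or 2 of 24 h, 2 without control culture 2 of 6 h or 5 of 24 h, and 3 without control culture 4 of 24 h. Of the other analyses, the one without a filter on low values called 0, against 4.09% of all genes, and the fit over all 6 groups called 1, against 8.93%. The one with unnamed transcripts added also called Pex19, whose own difference stayed at 0.31 (adjusted p = 0.0427 in place of 0.0730).

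**Figure D2:**
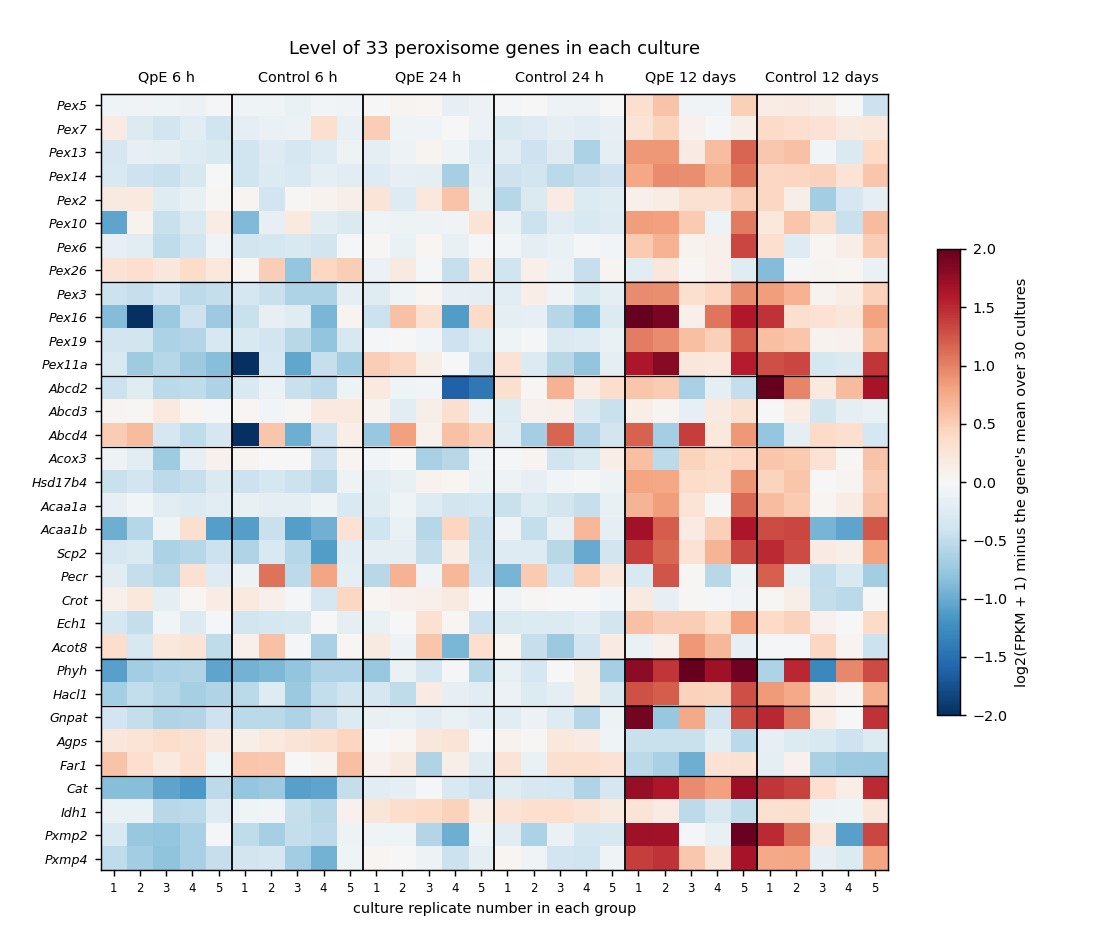
Level of the 33 tested genes in each culture, as log2(FPKM + 1) minus the gene's mean over 30 cultures (red above, blue below), with genes in rows by role and cultures in columns by group. Most rows are red at 12 days, paler in cultures 3 and 4 than in cultures 1, 2 and 5, while Agps and Far1 run the other way.

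The second question was what QpE did at each time. At 6 h no peroxisome gene was called (limma, 0.00554% of all genes called), and 0 of 33 had an unadjusted p under 0.05. The differences ran from -0.85 for Pex16 to 0.57 for Abcd4, with a median of -0.01. The differences of Pex16 and Abcd4 were -0.30 and 0.01 with unnamed transcripts added. At 24 h again none was called, against 0.0166% of all genes, and 3 of 33 had an unadjusted p under 0.05. Those were Pex10 (0.26) and Pex13 (0.23), both higher with QpE, and Abcd2 (-0.91, and -0.18 with unnamed transcripts of the locus added), with a lowest adjusted p of 0.662. Pex10 and Pex7 did not overlap between the groups at 24 h, both higher with QpE, against 0.682% of all genes. Pex10, a ligase subunit that modifies the import receptor, was at 5.42, 5.38, 5.36, 5.49 and 7.25 FPKM in QpE cultures at 24 h, against 5.19, 4.05, 4.80, 4.54 and 4.69 FPKM in control cultures at 24 h. QpE culture 5 stood above the other 4, which lay just above the highest control.

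At 12 days, Pex14 was higher with QpE, and it was the single call among the 33 genes, against 4.86% of all genes called and 2.13% called higher. Pex14 encodes the docking protein at which cargo-loaded PEX5 meets the peroxisomal membrane. It was at 38.8, 44.0, 43.7, 37.3 and 47.8 FPKM in QpE cultures, against 30, 30.5, 31.1, 27.3 and 33.3 FPKM in control cultures. All 5 QpE cultures lay above all 5 control cultures, the log2 difference was 0.46 ± 0.09 (SE), and the adjusted p was 0.0300. From named transcripts, no other peroxisome gene was free of overlap, against 10.4% of all genes. With unnamed transcripts added, 3 of the 33 were, Pex14, Pex2 and Abcd4, all higher with QpE, against 14.3% of all genes in that analysis. None could be added to Pex14, whose locus holds another named gene, so its values were the same there. Without QpE culture 3 the adjusted p of Pex14 was 0.0611, and without control culture 1, 2, 3, 4 or 5 it was 0.0609, 0.0672, 0.0642, 0.0704 or 0.0584, with differences between 0.42 and 0.50 throughout. Scaling each library to TPM gave 0.0502, and the split over all genes was then 224 higher and 604 lower, against 384 and 493 as deposited. The fit over all 6 groups, which shares 1 estimate of the spread, called 5 of the 33 genes at 12 days, against 16.1% of all genes, and the fit with the replicate number as a block called 4, against 3.77%. Pex14 and Pex19 were in both, joined by Pex13, Phyh and Abcd2 in the first and by Hsd17b4 and Pxmp4 in the second. The change between the QpE effect at 24 h and that at 12 days was 0.32 for Pex14 (unadjusted p = 0.0281, adjusted p = 0.301). No peroxisome gene passed that test of the difference, against 0.0277% of all genes, and 3 of 33 had an unadjusted p under 0.05.

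**Figure D3:**
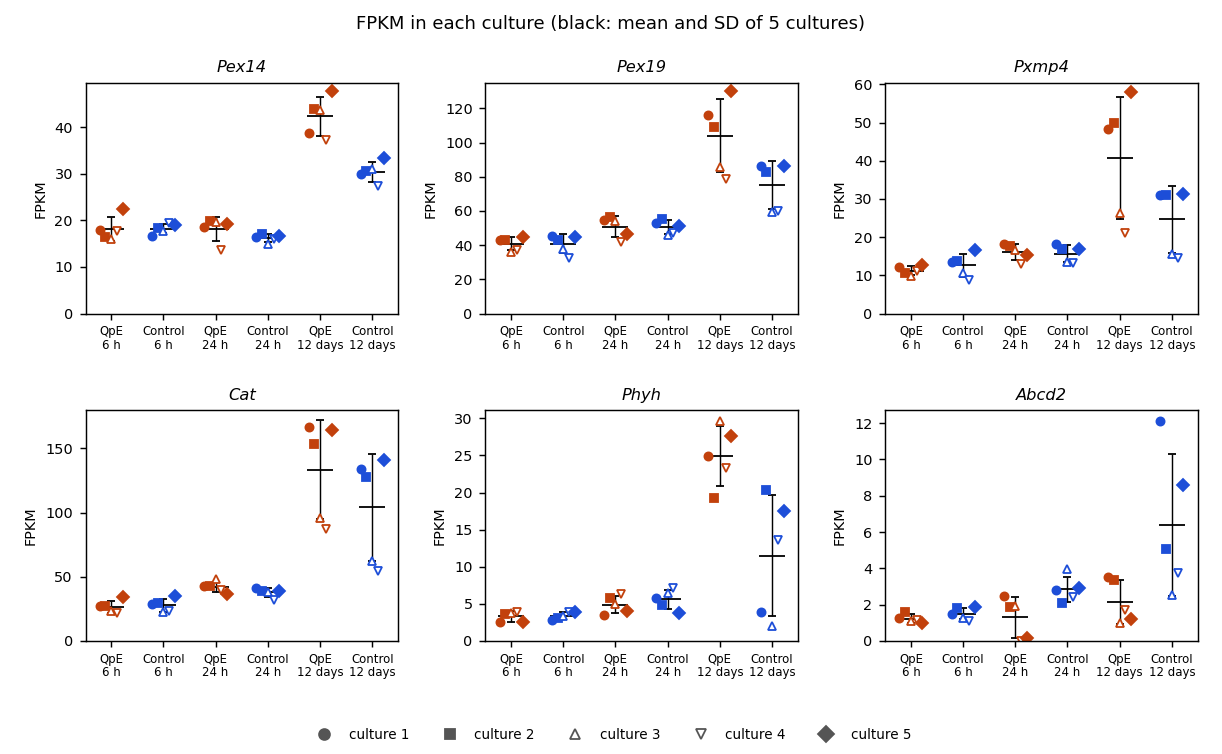
FPKM of 6 genes in each culture, with QpE (orange) left of control (blue) at each time. Black bars are the mean and SD of 5 cultures, and open symbols are cultures 3 and 4. Pex14 is the panel whose 12-day groups do not overlap. In Pex19, Pxmp4 and Cat the open symbols are the lowest of both groups at 12 days.

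Most other genes of the set also had the higher mean with QpE, without passing the test. At 12 days 27 of the 33 genes had a mean above the control with QpE, with a median log2 difference of 0.28, whereas 48.8% of all genes did and their median was -0.01. The median for the set was 0.21 with TPM scaling and 0.31 with median-ratio scaling. By role, the matrix import genes had a median of 0.38, the membrane biogenesis genes 0.44, beta-oxidation 0.21, alpha-oxidation 0.91, the ABC transporters 0.21, the redox and membrane channel genes 0.42, and ether lipid synthesis -0.12. The alpha-oxidation value is over Phyh and Hacl1 alone, and with unnamed transcripts added it was 0.46. The other medians were then 0.57 for membrane biogenesis, 0.30 for redox and membrane channel and 0.28 for beta-oxidation. Matrix import was at 0.26, the ABC transporters at 0.21 and ether lipid synthesis at -0.13. Counting unadjusted p under 0.05, there were 6 of 33 genes, 5 higher (Pex13, Pex14, Pex19, Phyh and Ech1) and Abcd2 lower, while 21.4% of all genes were under it.

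Several genes were large in difference but spread widely among cultures. Pex19 was at 116, 109, 85.9, 78.5 and 129.9 FPKM in QpE cultures at 12 days, against 86.3, 83.0, 59.4, 60.0 and 86.4 FPKM in control cultures. QpE culture 4 lay below 3 of the controls, so the groups overlapped, with a difference of 0.46 ± 0.17 (SE, adjusted p = 0.155). Pex13, the other docking protein, was at 20.4, 20.2, 12.1, 17 and 25.3 FPKM in QpE cultures, against 16, 16.5, 10.2, 8.54 and 14.3 FPKM in control cultures (0.51 ± 0.23, adjusted p = 0.229). Its groups overlapped as well, through QpE culture 3. Pxmp4 was at 48.2, 50.0, 26.4, 21.1 and 57.9 FPKM in QpE cultures, against 30.9, 31.0, 15.7, 14.5 and 31.4 FPKM in control cultures (0.68 ± 0.34, adjusted p = 0.285). QpE cultures 3 and 4 fell among the controls.

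Abcd2 had the lowest difference of the 6 genes whose mean was below the control with QpE at 12 days, the others being Idh1, Gnpat, Acox3 (0.02 with unnamed transcripts added), Agps and Pex7. Far1 changed sign the other way, from 0.13 to -0.13 with unnamed transcripts added. Abcd2 was at 3.51, 3.35, 0.960, 1.68 and 1.19 FPKM in QpE cultures at 12 days, against 12.1, 5.04, 2.52, 3.74 and 8.58 FPKM in control cultures. At 24 h it was at 2.49, 1.88, 1.94, 0 and 0.140 FPKM in QpE cultures, against 2.83, 2.10, 3.96, 2.41 and 2.89 FPKM in control cultures. The QpE means were the lower ones at both times, the groups overlapped at both, and the adjusted p was 0.664 at 24 h and 0.117 at 12 days, where the difference was -1.16 ± 0.39 (SE). Once unnamed transcripts were added, Abcd2 was at 2.5, 2.98, 3.98, 3.86 and 2.61 FPKM in QpE cultures at 24 h, against 3.91, 4.42, 4.05, 3.28 and 2.94 FPKM in control cultures at 24 h, so that QpE cultures 4 and 5 were no longer near 0. The difference was then -0.18 at 24 h and -0.82 at 12 days (adjusted p = 0.726 and 0.243). Abcd3, the most abundant transporter of the set, was at 38.4, 36.3, 31.1, 39.7 and 43.7 FPKM in QpE cultures at 12 days, against 35.2, 39.1, 26.9, 30.3 and 31.8 FPKM in control cultures. These overlapped, and the difference was 0.21 (95% interval -0.06 to 0.48). Abcd4, a family member known for handling cobalamin in lysosomes, differed by 0.71 (adjusted p = 0.348), and its groups overlapped. With unnamed transcripts added, it was at 15.7, 15, 18.2, 15.5 and 16.6 FPKM in QpE cultures, against 12.2, 12.7, 13.7, 13.7 and 14 FPKM in control cultures. Those groups did not overlap, and the difference was 0.27 (adjusted p = 0.0554).

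Enzyme genes at 12 days also overlapped between the groups. Hsd17b4 was at 60.1, 59.1, 44.3, 43.8 and 64.0 FPKM in QpE cultures, against 46.9, 50.8, 34.4, 35.6 and 49.1 FPKM in control cultures (0.32 ± 0.16, adjusted p = 0.281). Cat was at 167, 153, 95.9, 87.5 and 164 FPKM in QpE cultures, against 134, 128, 62.5, 54.4 and 141 FPKM in control cultures (0.41 ± 0.32, adjusted p = 0.512). In both genes cultures 3 and 4 were the lowest of each group, and QpE cultures 3 and 4 lay below the 3 highest controls. Hacl1 was at 14, 13.5, 7.58, 7.44 and 14.2 FPKM in QpE cultures, against 10.3, 9.59, 5.94, 5.45 and 9.30 FPKM in control cultures (0.42 ± 0.25, adjusted p = 0.364). Gnpat was at 105, 15.5, 46.2, 20.6 and 69.1 FPKM in QpE cultures, wider than the 27.3 to 78.7 FPKM of control cultures, and the interval of its difference ran from -1.46 to 0.93. Idh1 was at 231, 218, 134, 155 and 136 FPKM in QpE cultures, against 240, 242, 180, 183 and 227 FPKM in control cultures (-0.32 ± 0.18, adjusted p = 0.356). Pex16 reached 55.9, 46.4, 12.7, 25.9 and 37.8 FPKM in QpE cultures, against 33.8, 14.9, 14.6, 13.9 and 21.4 FPKM in control cultures (0.75 ± 0.39, adjusted p = 0.312). QpE culture 3 was the lowest value of either group. After adding unnamed transcripts Pex16 was at 78.1, 62.2, 42.7, 33.9 and 97.9 FPKM in QpE cultures, against 46.2, 43.9, 19.3, 18.3 and 34.3 FPKM in control cultures (0.94, adjusted p = 0.105). QpE culture 3 then lay above 3 of the controls, and the groups still overlapped.

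At 12 days the cultures numbered 3 and 4 stood below the others in many of these genes. They were the 2 lowest of the QpE group in 17 of 33 genes (51.5%), against 17.8% of all genes tested, and the 2 lowest of the control group in 22 of 33 (66.7%), against 20.3%. Both held in 13 genes, 39.4% of the set against 9.14% of all genes. The 13 were Pex13, Pex3, Pex16, Pex19, Pex11a, Hsd17b4, Acaa1a, Acaa1b, Scp2, Hacl1, Cat, Pxmp2 and Pxmp4. Pex11a shows the size of the gap from named transcripts, at 35.7, 40.9, 13.0, 12.8 and 34.5 FPKM in QpE cultures, against 28.2, 29.1, 8.33, 8.76 and 31.0 FPKM in control cultures. With unnamed transcripts added, cultures 3 and 4 were still the 2 lowest of each group for Pex11a, but the gap was smaller. Culture 4 was then the lowest, at 24.9 FPKM in QpE cultures and 14.4 FPKM in control cultures. Cultures 1, 2 and 5 were at 43.6 FPKM or above with QpE and at 28.2 FPKM or above in control cultures. Pex14 was outside this pattern in both groups. The adipocyte marker sum followed the same order, at 7493, 8603, 4346, 3228 and 6768 FPKM in QpE cultures and 5386, 4591, 1076, 1706 and 5568 FPKM in control cultures, and its part was not tested. The labels do not say what the replicate numbers share. Within cultures 1, 2 and 5 the difference for Pex14 was 0.46, and within cultures 3 and 4 it was also 0.46.

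The sequence before the annotated start is shown for Pex14, the gene called with QpE, and for Cat and Scp2, which had the largest rises in control cultures from named transcripts and hold the AGGTCA hexamer bound by nuclear receptors. The 250 bases are from RefSeq (GRCm38.p6), 5′ to 3′ on the gene's own strand, all 3 on the minus strand. Capitals mark the hexamer AGGTCA, the CCAAT box and the GC box GGGCGG on either strand, and no capitals overlap between motifs. The windows are chr4:149099844-149100093 for Pex14, chr2:103485154-103485403 for Cat and chr4:108118548-108118797 for Scp2.
Pex14: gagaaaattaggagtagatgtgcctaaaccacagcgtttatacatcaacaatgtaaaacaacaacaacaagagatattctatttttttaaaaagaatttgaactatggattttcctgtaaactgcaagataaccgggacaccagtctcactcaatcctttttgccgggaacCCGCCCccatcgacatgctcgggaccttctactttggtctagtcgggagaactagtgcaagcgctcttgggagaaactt
Cat: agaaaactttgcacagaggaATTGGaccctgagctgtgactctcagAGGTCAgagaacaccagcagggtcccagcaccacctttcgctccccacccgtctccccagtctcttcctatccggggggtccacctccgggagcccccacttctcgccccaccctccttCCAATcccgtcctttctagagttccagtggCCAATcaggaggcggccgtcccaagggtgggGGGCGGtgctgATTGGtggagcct
Scp2: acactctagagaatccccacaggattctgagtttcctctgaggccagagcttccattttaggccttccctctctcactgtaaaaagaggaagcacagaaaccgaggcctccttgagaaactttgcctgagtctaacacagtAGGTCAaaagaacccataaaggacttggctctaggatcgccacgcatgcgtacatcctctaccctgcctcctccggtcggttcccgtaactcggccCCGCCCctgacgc

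Peroxisome proliferator-activated receptors (PPARs) bind direct repeats of that hexamer with a spacer base. Windows of 300 bases, which also take in the first 50 bases of the transcript, were held by 28 of the 34 genes (33 windows). The direct repeat, AGGTCA followed by any 1 base and AGGTCA again on either strand, was found in 0 of the 33 windows and in 0.0396% of 32851 windows of all genes. The single hexamer was in 3 of 33 windows (9.09%, for Cat, Phyh and Scp2) and in 16.3% of all windows. CCAAT was in 48.5% and 37.4%, and GGGCGG in 75.8% and 35.7%. Pex14 had GGGCGG alone. These are matches of letters in a short window and say nothing of binding elsewhere.

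The genes of the regulators themselves moved with time. Of Ppara, Ppard, Pparg, Rxra, Ppargc1a and Ppargc1b, which encode the PPARs, their partner RXR-alpha and the PGC-1 coactivators, 5 of 6 were higher in control cultures at 12 days than at 24 h, against 8.11% of all genes. The differences were 1.79 for Ppargc1a, 1.71 for Pparg, 1.23 for Ppargc1b, 0.69 for Ppara and 0.47 for Ppard, and -0.05 for Rxra, which was not called. With QpE at 12 days, Ppargc1b was higher, against 2.13% of all genes, and the other 5 were not called. Ppargc1b was at 5.73, 6.55, 11.7, 7.78 and 8.95 FPKM in QpE cultures, against 4.36, 3.54, 3.32, 3.44 and 3.57 FPKM in control cultures. All 5 QpE cultures lay above all 5 controls (0.94 ± 0.18, adjusted p = 0.0279).

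Of 54 further peroxisome genes, 38 were tested. With QpE at 12 days, 3 of the 38 were higher and 1 was lower, against 2.13% of all genes called higher and 4.86% called in either direction. In control cultures at 12 days against 24 h, 10 of the 38 were higher and 2 were lower, against 8.11% and 12.4% of all genes. Ide, an insulin-degrading protease with a peroxisomal targeting signal, was at 25.7, 22.2, 22.1, 23.6 and 27.6 FPKM in QpE cultures, against 17.6, 19.1, 18.1, 15.7 and 17.4 FPKM in control cultures (0.44 ± 0.09, adjusted p = 0.0321). Lonp2, the peroxisomal Lon protease, was at 107, 101, 93.8, 91.4 and 122 FPKM in QpE cultures, against 84.1, 78.3, 58.6, 60.5 and 76.7 FPKM in control cultures (0.52 ± 0.13, adjusted p = 0.0475). In both genes the groups did not overlap. Acox2, the oxidase of bile acid intermediates, was at 5.78, 4.64, 8.28, 8.64 and 9.26 FPKM in QpE cultures, against 3.49, 3.09, 4.97, 3.02 and 2.43 FPKM in control cultures (0.91 ± 0.21, adjusted p = 0.0434). QpE culture 2 fell below the highest control.

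Which transcripts were summed changed several of these values. Values with unnamed transcripts added are given above for several genes and below for Phyh and Scp2, and the counts over the set follow. Adding the unnamed transcripts that could be assigned to a single named gene moved the QpE difference at 12 days by more than 0.1 in 13 of 33 genes. It raised the calls between control cultures at 12 days and 24 h to 19 higher and 2 lower, against 13.1% of genes called higher and 20.9% lower in that analysis. The 5 added were Pex6, Pex10, Pex11a, Phyh and Pxmp2.

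Phyh moved most. Its named transcripts summed to 24.9, 19.2, 29.7, 23.3 and 27.6 FPKM in QpE cultures at 12 days, against 3.85, 20.3, 2.06, 13.6 and 17.5 FPKM in control cultures (1.41 ± 0.51, adjusted p = 0.144). Control cultures 1 and 3 stood far below the others. An unnamed transcript of the locus, with 8 exons rather than 9 and a start downstream of the annotated one, was listed at 15.7, 0, 12.6, 0.754 and 0 FPKM in control cultures and at 0 in all 5 QpE cultures. With it, the control cultures were at 19.5, 20.3, 14.7, 14.3 and 17.5 FPKM, and the QpE values did not change. The difference was then 0.50 (adjusted p = 0.0408), against 12.2% of genes called in that analysis, and QpE culture 2 overlapped the controls. Between control cultures at 12 days and 24 h the difference for Phyh was 1.45 with the unnamed transcript (adjusted p = 9.52e-05) and 0.58 without it (adjusted p = 0.493).

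**Figure D4:**
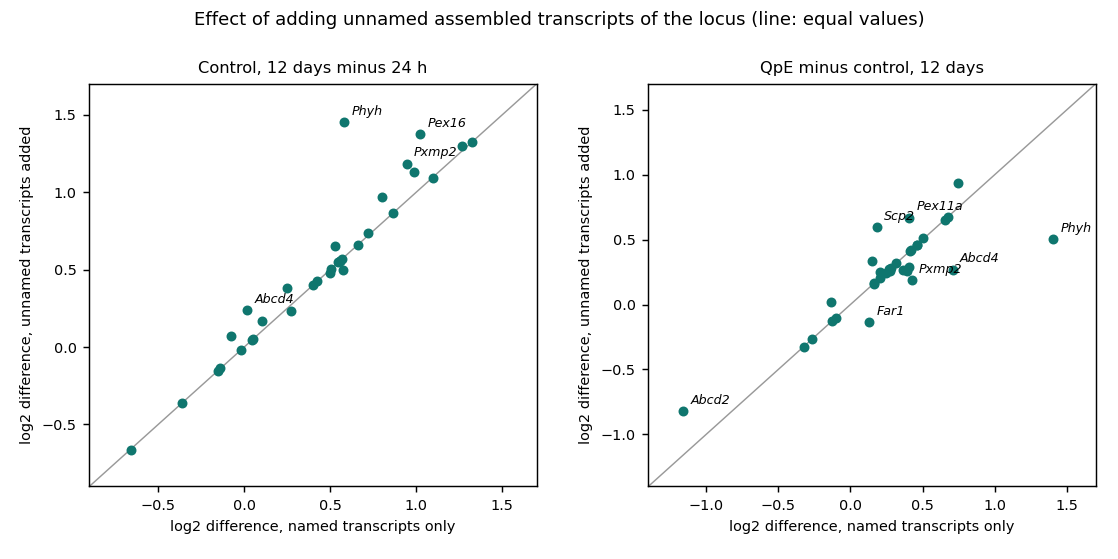
Log2 difference from named transcripts only (horizontal) against that with unnamed assembled transcripts of the locus added (vertical), for 33 genes, in control cultures at 12 days minus 24 h (left) and in QpE minus control cultures at 12 days (right). The line marks equal values, and genes more than 0.2 from it are named. Phyh lies farthest from the line in both panels.

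Scp2 is made as a long form that carries the thiolase and, from an internal start, as a short form that is the sterol carrier alone. The long form was at 119, 112, 89.5, 123 and 197 FPKM in QpE cultures at 12 days, against 187, 168, 84, 81.7 and 122 FPKM in control cultures. An unnamed transcript of 15 exons over nearly the same span was at 122, 125, 40.8, 10.6 and 76.4 FPKM in QpE cultures and at 0, 0, 0, 0 and 43.1 FPKM in control cultures. With it, Scp2 summed to 335, 309, 142, 142 and 284 FPKM in QpE cultures, against 233, 206, 92.5, 89.5 and 188 FPKM in control cultures, and the difference was 0.59 in place of 0.18 (adjusted p = 0.318 and 0.795). The groups overlapped either way.

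The short form of 5 exons (ENSMUST00000106701, chr4:108044550-108071419) was at 83.2, 63.1, 9.28, 5.47 and 7.41 FPKM in QpE cultures at 12 days and at 46.8, 35.0, 5.94, 6.19 and 18.7 FPKM in control cultures. It did not exceed 19.7 FPKM in any culture at 6 h or 24 h. In both 12-day groups cultures 1 and 2 were the highest. Transcript levels are the assembler's division of shared reads, and no test was made of them.

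**Figure D5:**
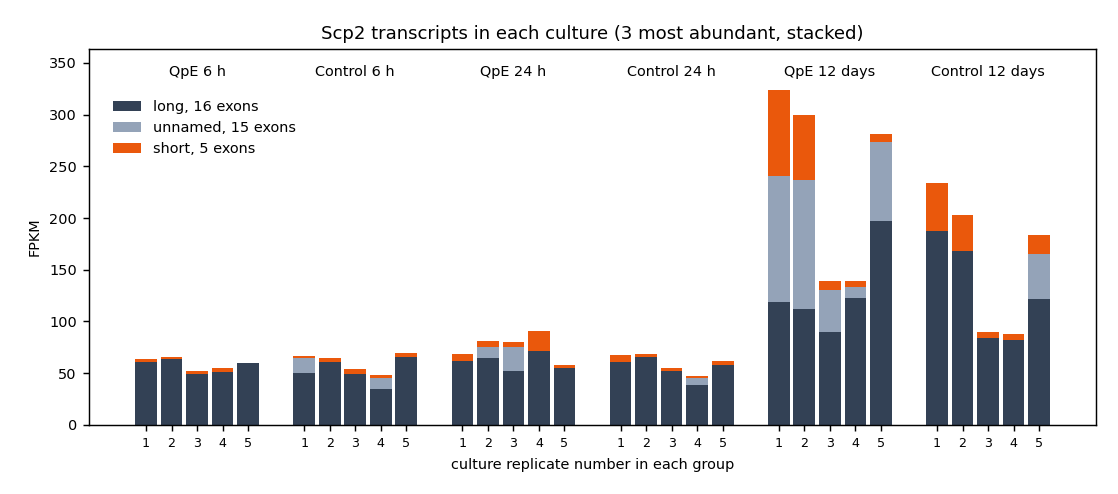
FPKM of the 3 most abundant Scp2 transcripts, stacked, in each culture. The unnamed transcript is large in QpE cultures 1, 2, 3 and 5 at 12 days and in control culture 5, and the short form is largest in cultures 1 and 2 of both 12-day groups.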

How the data were processed

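The authors deposited FPKM per transcript for the 30 libraries in 1 table. Per the labels' protocols, RNA had an integrity number of 10, poly(A) libraries were made with a directional kit and 13 PCR cycles, and paired reads of 75 bp were sequenced. The submitters' processing notes list HISAT, HISAT2 and StringTie and the build GRCm38, without versions, roles or settings. The deposited FPKM columns of 10 libraries had 11 slightly negative entries (lowest -7e-05), taken here as 0. The table held 150146 transcripts, of which 16259 had no gene name.

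FPKM of named transcripts were summed per gene and tested as log2(FPKM + 1), so a fold change is on that scale and understates the change of genes of low level. Gene rows at 1 FPKM in at least 5 of 30 libraries were tested with limma 3.58.1 in R 4.3.3 (trended variance, two-sided), fitting the compared groups only, with Benjamini-Hochberg adjustment over all 18036 and a threshold of 0.05. The fits of QpE against control were tested on simulated normal values. Of 1.5-fold changes, 22.8% were called at 12 days, 52.2% at 24 h and 47.4% at 6 h. Genes that were not called may thus have changed by such amounts. No count model was fitted, since the unit is FPKM. Of low values in single-exon genes, 35.0% to 61.3% per library were whole multiples of a common step within 0.004 (FPKM times bases), from which depth was estimated. That estimate assumed 150 bases per pair. Depth was not used in any test.

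Values in every culture are given for genes called with QpE in the main, all-group or replicate-block fit, for the most abundant gene of each role and for the one that changed most between control cultures at 12 days and 24 h. Alternatives were another pseudocount (0.1), no filter or 5 FPKM, median-ratio and TPM scaling, the most abundant transcript only, unnamed transcripts added (10567 assigned), all 6 groups in one fit, the replicate number as a block, subsets of the replicates and leaving out each culture. The genes, lists, marker lists and replicate subsets were chosen with earlier results of these data known. Results of some further peroxisome genes are not reported here.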

Additional observations from a re-analysis of the deposited data

Results flagged for a closer look

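Within groups of 5 cultures, 14 of 198 gene and group sets had a highest or lowest culture whose gap to the nearest other was more than 0.710 of the group's range. Chance flags about 1 in 20 such sets. With unnamed transcripts added, 8 of the 14 remained. For Pex5, Pex7, Pex14 and Pex26 none could be added, so their flags could not change. No cause was tested.

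Those that remained were the following. Pex5 was at 40 FPKM in control culture 5 at 12 days, against 54.0 to 60.9 in the other 4. Pex26 was at 1.2 FPKM in control culture 1 at 12 days, against 2.67 to 3.17. Pex14 was at 13.7 FPKM in QpE culture 4 at 24 h, against 18.5 to 19.8. Pex7 was at 3.74 FPKM in QpE culture 1 at 24 h, against 2.13 to 2.41, and at 3.23 FPKM in control culture 4 at 6 h, against 1.98 to 2.12. Pex10 was at 7.25 FPKM in QpE culture 5 at 24 h, against 5.36 to 5.49. Pex6 was at 13.7 FPKM in control culture 5 at 6 h, against 10.6 to 11.1. Acox3 was at 6.86 FPKM in control culture 4 at 6 h, against 9.45 to 9.84.

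Another 6 lay within the bound once unnamed transcripts were added. Acox3 was at 6.29 FPKM in QpE culture 2 at 12 days from named transcripts and at 15.4 with the others. Pecr was at 10.2 FPKM in control culture 1 at 12 days, where the other 4 moved to 6.66 to 8.83. Pex16 was at 0.384 FPKM in QpE culture 2 at 6 h, and at 6.67 with the others. Abcd4 was at 15.5 FPKM in control culture 3 at 24 h, where the other 4 moved to 9.18 to 11.6. Far1 was at 11.2 FPKM in control culture 2 at 24 h, and at 34.5 with the others. Pex2 was at 7.37 FPKM in control culture 2 at 6 h, and at 11.1 with the others.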

How the results depend on the processing

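For QpE at 12 days, where 1 peroxisome gene and 877 of all genes were called, 0 and 828 were called with TPM scaling, 2 and 1789 with unnamed transcripts added, 5 and 2905 in the fit over all 6 groups, 0 and 73 with replicates 1, 2 and 5 only, and 0 and 0 with replicates 3 and 4 only. No filter gave 364 of all genes and the most abundant transcript only 376. The 5 were Pex13, Pex14, Pex19, Phyh (higher) and Abcd2 (lower). Leaving out 1 culture gave 0 to 1 peroxisome genes and 54 to 761 of all genes. Between control cultures at 24 h and 6 h (5 and 2239), no filter gave 0 peroxisome genes, TPM scaling 3, the most abundant transcript only 1 (1333 of all genes), the fit over all 6 groups 1, and leaving out 1 culture 0 to 5 (1481 to 2182 of all genes). Between control cultures at 12 days and 24 h (16 and 3693), no filter gave 9, replicates 3 and 4 only 1 (628 of all genes), the most abundant transcript only 2431 of all genes, and leaving out 1 culture 9 to 18 (2966 to 3862 of all genes).

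At 6 h 1 gene of all was called, and 0 with the pseudocount 0.1, the stricter filter, the most abundant transcript only or the fit over all 6 groups, and 1 to 7 without 1 culture. At 24 h 3 were called, and 0 without a filter, with the stricter filter, with unnamed transcripts added or over all 6 groups, and 0 to 8 without 1 culture. For the change of the QpE effect from 24 h to 12 days, 5 of all genes were called, 3 with the pseudocount 0.1, 8 without a filter, 66 with the stricter filter, 140 with unnamed transcripts added, 364 over all 6 groups and 5 to 183 without 1 culture. Peroxisome genes called in these 3 comparisons stayed at 0 in every alternative run. The cause of these moves was not tested, apart from the fewer cultures in some.

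With the replicate block, the fit called 4 peroxisome genes with QpE at 12 days (Pex14, Pex19, Hsd17b4 and Pxmp4, all higher) and 2 between control cultures at 24 h and 6 h. Over all genes it called 0 at 6 h, 0 at 24 h, 1269 between control cultures at 24 h and 6 h, and 10 for the change of the QpE effect. The deviations of QpE and control cultures with the same number correlated by 0.08 to 0.21 at 12 days, 0.02 to 0.08 at 6 h and -0.01 to 0.11 at 24 h. Not every culture matched its own number best, and the main fit did not pair the cultures. Such correlations over all genes cannot decide whether the numbers mark pairs. At 12 days the block lowered the SE to 0.06 for Pex19, 0.07 for Pxmp4 and 0.10 for Cat, while that of Phyh was 0.53. In Pex19, Pxmp4, Cat, Hsd17b4 and Hacl1, each QpE culture at 12 days lay above the control of its number. In Scp2, Abcd3 and Gnpat this did not hold from named transcripts, and in Scp2 it did hold with unnamed transcripts added. The share of all genes with this order is not given here. Ehhadh lay below the filter and was not tested. Acaa1b and Abcd2 were near or below 1 FPKM in some cultures, and their differences depended on the pseudocount. With QpE at 12 days they were 0.65 and -1.16 with the pseudocount 1, and 1.48 and -1.50 with 0.1.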
